A study of Mus musculus with 6 samples.

Results

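The genes of primitive red cells and the globins were examined on arrays of the tissue that forms the eye lens in the mouse embryo. They comprised 9 genes, Hba-x, Hbb-bh1, Hbb-y, Hba-a1, Klf1, Gata1, Alas2, Epor and Slc4a1, and were taken as all 12 probes whose platform gene symbol was one of these names, out of 45281 probes on the array. With them 9 of 19057 named genes were covered. The study compared the wild type lens placode, a thickened patch of surface ectoderm over the optic vesicle, with the corresponding surface ectoderm labelled Pax6-/-, both at embryonic day 9.5 and on a mixed background of FVB and 129. The paired-box gene Pax6 is required for the eye to form, and the sources used here do not name the allele. Tissue was cut by laser from stained frozen sections of 10 µm, the RNA of each genotype came from a pool of 3 embryos, and each of its 3 amplified samples went on 1 Illumina bead array. Since the labels name a pool for each genotype and no separate animals, p-values measure only the spread between these samples, which may be technical.

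Primitive erythroid cells are the first red cells of the embryo. They arise in the yolk sac and enter the circulation around the stage studied here, so sections of the head contain them in vessels and spaces beside the ectoderm. They make haemoglobin from embryonic chains, zeta globin (Hba-x) on the alpha side and the y and bh1 globins (Hbb-y, Hbb-bh1) on the beta side, together with adult alpha globin. The transcription factors Gata1 and Klf1 switch on globin, haem and membrane genes, Alas2 catalyses the first step of haem synthesis in red cells, Epor is the receptor for erythropoietin, and Slc4a1 encodes band 3, the anion exchanger of the red cell membrane. Surface ectoderm is not known to make haemoglobin, and the values are given array by array beside the genotype. As the labels read, the arrays of a genotype are amplifications of 1 RNA pool. If so, a difference between them is not one in the blood content of separate tissue samples, and whether they share a pool was not tested.

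Promoter sequences are shown for the 3 globins with a matched window, whose signal varied together over the arrays. Alas2, which departed from the globins on wild type replicate 1, and Klf1, whose signal did not follow theirs, are also shown. Each is the RefSeq window of 250 bases before to 50 after the gene's start in build GRCm38.p6. Capitals mark matches, on either strand, to the GATA letters AGATAA or TGATAA and to the CACCC-type letters CCNCNCCC, a pattern that also covers CCACACCC.
Hba-x, chr11:32276350-32276649, plus strand: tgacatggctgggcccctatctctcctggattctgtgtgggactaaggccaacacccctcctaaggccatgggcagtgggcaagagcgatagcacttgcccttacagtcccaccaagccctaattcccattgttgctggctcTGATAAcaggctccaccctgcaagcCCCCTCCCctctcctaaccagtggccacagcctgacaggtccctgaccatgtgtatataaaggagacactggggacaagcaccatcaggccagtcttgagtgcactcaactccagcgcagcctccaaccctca
Hba-a1, chr11:32283422-32283721, plus strand: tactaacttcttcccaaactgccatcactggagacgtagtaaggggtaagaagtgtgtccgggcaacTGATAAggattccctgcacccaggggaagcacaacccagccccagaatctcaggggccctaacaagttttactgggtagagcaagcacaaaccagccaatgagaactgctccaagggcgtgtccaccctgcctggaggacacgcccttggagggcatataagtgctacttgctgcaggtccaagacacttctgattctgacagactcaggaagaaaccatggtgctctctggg
Hbb-y, chr7:103853158-103853457, minus strand: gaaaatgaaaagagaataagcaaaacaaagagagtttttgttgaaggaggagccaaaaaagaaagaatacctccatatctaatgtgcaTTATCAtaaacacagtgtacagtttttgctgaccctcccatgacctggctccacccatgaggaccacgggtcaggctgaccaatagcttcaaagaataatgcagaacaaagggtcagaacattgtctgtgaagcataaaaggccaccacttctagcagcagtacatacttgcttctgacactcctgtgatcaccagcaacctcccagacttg
Alas2, chrX:150547167-150547466, plus strand: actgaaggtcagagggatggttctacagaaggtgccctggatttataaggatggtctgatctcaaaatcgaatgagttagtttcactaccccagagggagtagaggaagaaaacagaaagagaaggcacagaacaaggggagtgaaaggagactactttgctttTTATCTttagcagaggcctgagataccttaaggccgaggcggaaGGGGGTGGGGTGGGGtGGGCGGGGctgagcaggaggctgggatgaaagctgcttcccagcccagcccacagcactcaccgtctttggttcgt
Klf1, chr8:84901732-84902031, plus strand: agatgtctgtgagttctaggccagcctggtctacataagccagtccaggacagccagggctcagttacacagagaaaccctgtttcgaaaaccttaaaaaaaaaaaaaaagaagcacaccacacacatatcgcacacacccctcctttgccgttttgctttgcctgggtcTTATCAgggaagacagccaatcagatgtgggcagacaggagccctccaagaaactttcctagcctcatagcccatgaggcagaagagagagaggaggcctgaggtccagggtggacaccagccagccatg
RefSeq windows were matched for 7 of the 9 members, all but Hbb-bh1 and Slc4a1. The GATA letters were present in 6 of these 7 windows, Gata1 being the exception, and in 18.6% of all 32851 promoter windows. The full CACCC-type pattern was present in 4 of the 7, Hba-x, Gata1, Alas2 and Epor, and in 49.5% of all windows. Both it and the GATA letters were present in 3 of the 7 against 5.73% of all windows. The shorter letters that give the pattern its name were not counted. They also occur in the printed windows of Hbb-y, Hba-a1 and Klf1, and unmarked in that of Hba-x. TATAAA or CATAAA was found in 3 of the 7, among them Hba-x and Hbb-y, and in 22.8% of all windows. A match is a description of the letters and does not show binding.

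Between 21062 and 22712 probes were detected (detection p under 0.05) on 5 arrays. Pax6-/- replicate 2 had 17276 and the lowest mean signal, 182 against 228 to 260. Both probes of Pax6 were detected on all arrays, and the brighter one gave a mean log2 signal of 11.11 ± 0.05 for wild type against 10.46 ± 0.29 for Pax6-/- (SD, n = 3), a difference of -0.66 (SE 0.27, limma, adjusted p = 0.528). Whether these probes lie in a deleted part of the gene was not known, so they do not check the labels. Ectodermal markers were bright on every array, with the epithelial cadherin Cdh1 between 10.48 and 10.95 and the adhesion molecule Epcam between 9.66 and 10.42, while Foxe3, a lens transcription factor, had no probe detected on 3 or more arrays. Slide 1 carried Pax6-/- replicates 1 and 2 with wild type replicate 1, and slide 2 the remaining 3 arrays.

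Embryonic globin transcripts were well detected in both genotypes, and their level differed more between Pax6-/- arrays than between the means of the genotypes. Of the 9 members 7 had a probe detected on at least 3 arrays and were tested, and 5 of them, the 4 globins and Slc4a1, were detected on all 6. No tested member passed the test, and the arrays of the genotypes overlapped for each of them except Klf1. The array with the highest signal for 6 of the 7 was Pax6-/- replicate 1, and the array with the lowest signal for 7 of the 7 was Pax6-/- replicate 2, so the extremes fell within the same genotype.

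**Figure D1:**
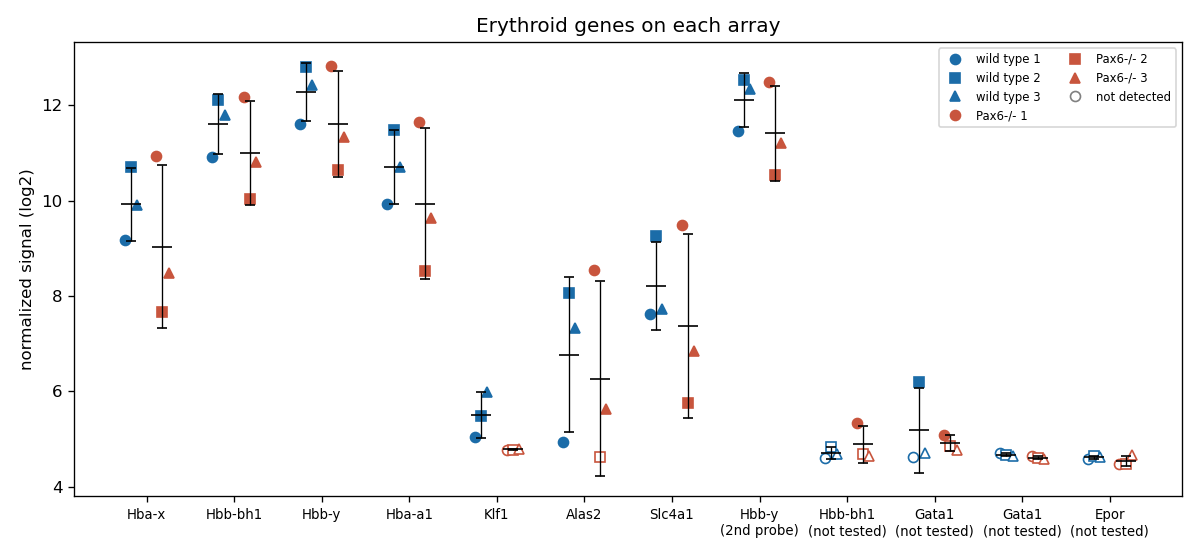
Log2 normalized signal of each probe of the 9 genes on the 6 arrays (points; blue for wild type, red for Pax6-/-; open symbols, not detected), with the mean and SD of each genotype (n = 3) as black bars. Tested globins, Alas2 and Slc4a1 are highest on Pax6-/- replicate 1, except the other Hbb-y probe (wild type replicate 2), and lowest on Pax6-/- replicate 2, and the values of the genotypes overlap for all tested genes but Klf1.

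Among the alpha-type chains, Hba-x, which encodes embryonic zeta globin, had log2 signals of 9.17, 10.70 and 9.91 on wild type replicates 1, 2 and 3 and of 10.95, 7.66 and 8.49 on the Pax6-/- replicates. The Pax6-/- arrays thus held both the highest and the 2 lowest values. The difference of Pax6-/- minus wild type was -0.90 (SE 0.85, 95% interval -2.91 to 1.12, limma, adjusted p = 0.749). Between Pax6-/- replicates 1 and 2 the signal differed 9.78-fold, a larger step than the fitted difference between genotypes. The beads carrying the probe gave far smaller errors: before normalization Pax6-/- replicate 1 read 2001 (standard error 78.1 over 31 beads) and Pax6-/- replicate 2 read 177 (standard error 10.5 over 37 beads).

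Hba-a1, the adult alpha chain, which primitive cells also make, followed Hba-x closely. It read 9.94, 11.49 and 10.71 in wild type and 11.65, 8.54 and 9.63 in Pax6-/-, a difference of -0.77 (SE 0.80, 95% interval -2.68 to 1.13, limma, adjusted p = 0.770). After each gene was centred on its own mean, the departure of Hba-a1 from that of Hba-x lay between -0.14 and 0.30 over the 6 arrays, while each gene spanned more than 3 on the log2 scale (3.12 for Hba-a1 and 3.29 for Hba-x). Mouse Hba-a1 has a near-identical copy, Hba-a2, and the signal cannot be assigned to one of them.

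Among the beta-type chains, Hbb-y, the embryonic y globin, was the brightest member. On its brighter probe it read 11.61, 12.80 and 12.43 in wild type and 12.83, 10.64 and 11.35 in Pax6-/-, a difference of -0.67 (SE 0.60, 95% interval -2.10 to 0.75, limma, adjusted p = 0.737). Its other probe gave -0.70 (SE 0.55, limma, adjusted p = 0.702), with wild type values from 11.47 to 12.54 and Pax6-/- values from 10.54 to 12.49. In both cases Pax6-/- replicate 1 lay near the highest wild type array and the other Pax6-/- arrays lay below the lowest one.

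Hbb-bh1, the other embryonic beta-type chain, read 10.91, 12.12 and 11.79 in wild type and 12.19, 10.03 and 10.82 in Pax6-/-. Its difference was -0.60 (SE 0.60, 95% interval -2.01 to 0.82, limma, adjusted p = 0.760). Its centred values departed from those of Hbb-y by -0.07 to 0.10 over the 6 arrays, the closest match between members compared here. The other Hbb-bh1 probe was dim and was detected on Pax6-/- replicate 1 only, at 5.34. The beta-type chains spanned less of the log2 scale than the alpha-type chains, 2.15 for Hbb-bh1 and 2.19 for Hbb-y, and Hba-x departed from Hbb-y by -0.52 on Pax6-/- replicate 2 and by 0.58 on Pax6-/- replicate 1.

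Slc4a1, band 3 of the red cell membrane, had a wider span than the 4 globins among the members. It read 7.62, 9.27 and 7.73 in wild type and 9.498, 5.76 and 6.85 in Pax6-/-, and the step between Pax6-/- replicates 1 and 2 was 13.3-fold. The genotypes overlapped, with a difference of -0.83 (SE 0.96, 95% interval -3.11 to 1.44, limma, adjusted p = 0.792). Alas2, the enzyme that starts haem synthesis in red cells, read 4.94, 8.06 and 7.32 in wild type and 8.55, 4.62 and 5.64 in Pax6-/-. It was detected on all arrays but Pax6-/- replicate 2. Its difference of -0.50 (SE 1.17, 95% interval -3.26 to 2.26, limma, adjusted p = 0.902) was the least certain of the 7, and it was the tested member in which wild type replicate 1 lay below Pax6-/- replicate 3.

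The transcription factors and the receptor were at or near the detection limit. Klf1, which activates globin genes, read 5.04, 5.48 and 6.00 on the wild type arrays and 4.78, 4.77 and 4.79 on the Pax6-/- arrays, where it was not detected. Its wild type mean was at least 1.38-fold above its Pax6-/- mean. For this bound each Pax6-/- array was set to the dimmest detected signal on it, or to Klf1 itself where that was brighter. The bound leaves out the spread between arrays, and wild type replicate 1 (5.038) lay below the bounded Pax6-/- mean (5.042). The fitted difference of -0.72 (SE 0.31, 95% interval -1.46 to 0.02) did not pass (limma, adjusted p = 0.551). Klf1 entered the test only through its wild type arrays, so its non-overlap follows in part from the detection filter. Unlike the globins it was not detected on Pax6-/- replicate 1.

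Gata1, the erythroid GATA factor, was detected on its brighter probe on 2 arrays, wild type replicate 2 (6.21) and Pax6-/- replicate 1 (5.09), which were also the 2 arrays with the most globin. Its other probe was not detected on any array, with values from 4.59 to 4.71. Epor was not detected on any array either (4.48 to 4.66). Neither Gata1 nor Epor was tested, and a low probe signal does not show that the transcript was absent.

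Over the 7 tested members, limma called 0 at an adjusted p under 0.05, against 0.00912% of all 10967 genes tested, and 0 passed an unadjusted p of 0.05, against 9.09% of all genes. All 7 differences were negative, as were 55.5% of all genes. Without the detection filter the differences of all 9 members were negative. Epor was at background on all arrays. Gata1 was detected on wild type replicate 2 (6.21) and Pax6-/- replicate 1 (5.09) only. The median difference was -0.72, beside -0.07 over all genes, and without Klf1 it was also -0.72. Arrays of the genotypes did not overlap in 1 of the 7, Klf1, against 17.5% of all genes in either direction and 10.3% lower in Pax6-/-. The members' differences share the same arrays and are not independent of each other.

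The size of the median depended on single arrays, and the sign of Alas2 did too. Without Pax6-/- replicate 2 the median difference was -0.11, and Hba-x was at -0.21, Hba-a1 at -0.07 and Alas2 at 0.32. Without Pax6-/- replicate 1 the median was -1.63, with Hba-x at -1.85 and an adjusted p of 0.374 by limma, the smallest of any member in the fits with all or with 1 array left out. Leaving out wild type replicate 1 gave a median of -1.13 and leaving out wild type replicate 2 one of -0.38. Within slide 1, where wild type replicate 1 lay between the Pax6-/- arrays for 6 of the 7 members, all but Klf1, the median was 0.13. Within slide 2, where the single Pax6-/- array lay below both wild type arrays, it was -1.47, and with slide as a block -0.60.

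**Figure D2:**
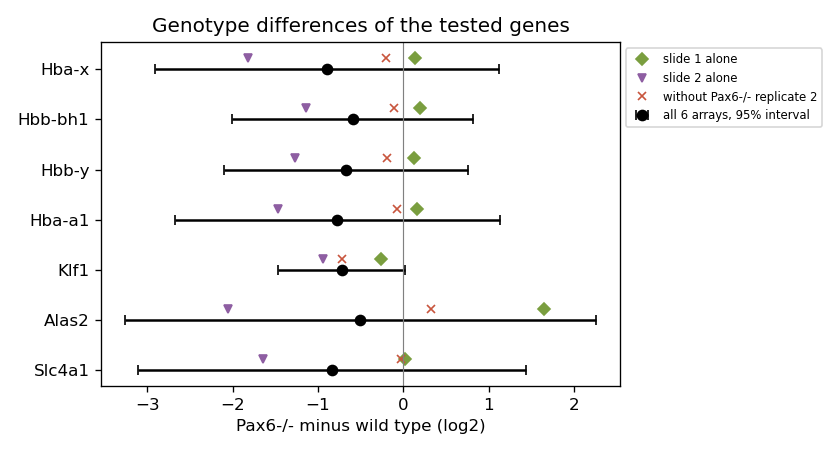
Pax6-/- minus wild type difference (log2) of the 7 tested genes over all 6 arrays with its 95% interval (black), and the same difference within slide 1, within slide 2 and without Pax6-/- replicate 2. All intervals include 0, and within slide 1 the points lie at or above 0 for all genes but Klf1.

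The array-to-array pattern was shared. Averaged over Hba-x, Hbb-bh1 and Hbb-y, each centred on its mean, the level on the log2 scale was -0.35, 0.96 and 0.47 on wild type replicates 1, 2 and 3 and 1.08, -1.47 and -0.69 on the Pax6-/- replicates. Between the array with the most and the array with the least, the span was 2.54, or 5.83-fold. Pax6-/- replicate 1 stood 0.12 above wild type replicate 2, its nearest neighbour in the order, and 1.42 above wild type replicate 1. The wild type mean was 0.36 (SD 0.66) and the Pax6-/- mean -0.36 (SD 1.30, n = 3 each), so the spread within Pax6-/- was larger than the difference of -0.72 between genotypes. Between genotypes, fewer erythroid cells in the cut tissue and less RNA per cell cannot be told apart in such samples. Within a genotype, if the arrays share 1 pool as the labels read, a difference between them is not one in the tissue. Whether they share a pool was not tested. Amplification and hybridisation cannot be told apart, since each amplified sample went on 1 array.

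The order from Pax6-/- replicate 1 through wild type replicates 2, 3 and 1 to Pax6-/- replicates 3 and 2 held for 5 of the 7 tested members, the 4 globins and Slc4a1, and for 0.374% of all genes. This order was read from the members themselves, so its share among them is a description and not a test. Pax6-/- replicate 2, which had the lowest signal for each tested member, was also the lowest array for 33.6% of all genes and had the fewest detected probes. The part of this in the erythroid values was not tested.

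**Figure D3:**
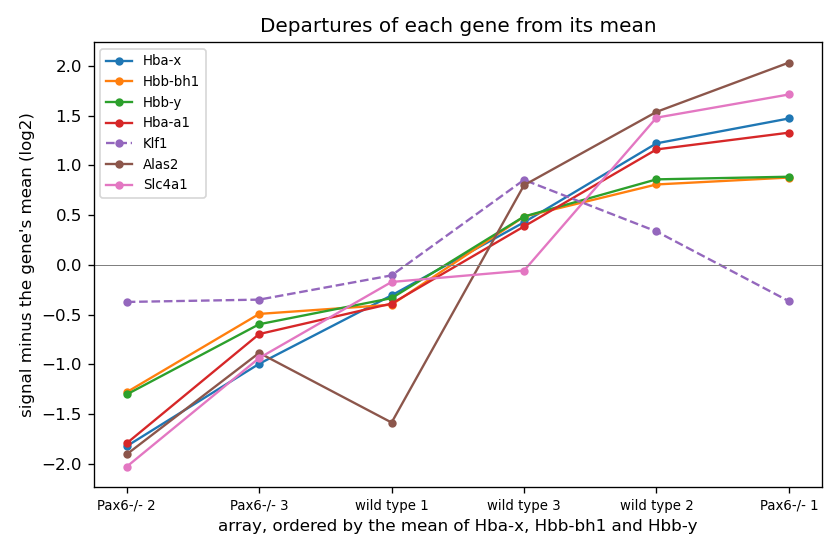
Log2 signal minus the gene's mean over the 6 arrays for each of the 7 tested genes, with arrays ordered by the mean of Hba-x, Hbb-bh1 and Hbb-y. The globins and Slc4a1 climb from Pax6-/- replicate 2 to Pax6-/- replicate 1, Alas2 departs on wild type replicate 1, and Klf1 (dashed) is highest on wild type replicate 3.

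The spread between arrays of one genotype was wide for these genes when set beside all genes. The SD over the Pax6-/- arrays was 1.71 for Hba-x, 1.92 for Slc4a1 and 2.04 for Alas2, beside a median of 0.50 over all genes, and 2.22%, 1.12% and 0.702% of all genes had a larger one. Hbb-bh1 and Hbb-y had an SD of 1.09 and 1.12, exceeded by 13.5% and 12.6% of genes. In wild type the SD of Hba-x was 0.76, exceeded by 10.8% of genes, and that of Alas2 was 1.63, exceeded by 0.328%. Klf1 varied by 0.48 in wild type and by 0.01 in Pax6-/-, where it was at background.

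**Figure D4:**
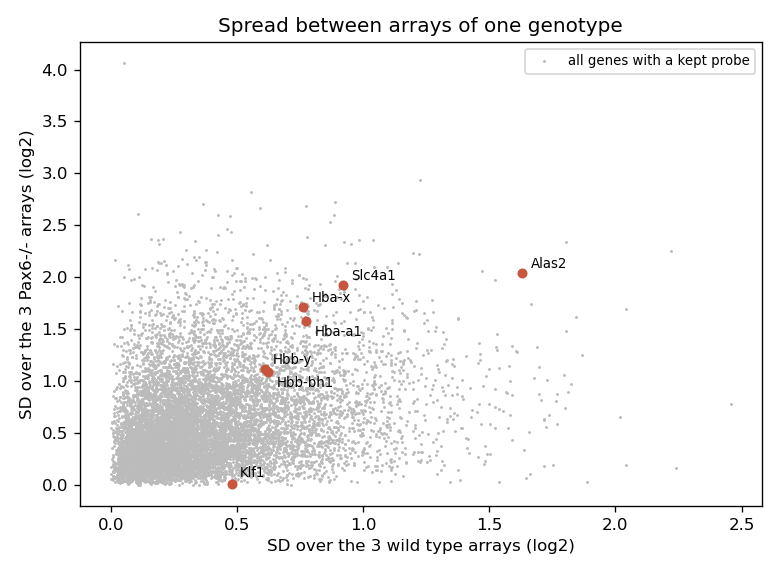
SD over the 3 wild type arrays (horizontal, log2) against SD over the 3 Pax6-/- arrays (vertical, log2) for every gene with a kept probe (grey) and the 7 tested members (red). Alas2, Slc4a1, Hba-x and Hba-a1 lie high on the vertical axis, and Klf1 lies at its foot.

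Adult beta globins, which definitive red cells make later, were read from 11 probes annotated to Hbb-b2, Hbb-bt and Hbb-bs, near-identical copies whose signals cannot be assigned with certainty. The probes disagreed. In 6 of them Pax6-/- replicate 2 was the lowest array, as for the members, and the fitted differences ran from -1.36 to -0.25. These 6 probes lay below the dimmest detected signal on that array (5.39), where the globin members were detected. Their differences thus rest in part on a value at background. The other 5 had positive differences, 0.44 to 0.95, and did not have their lowest value on that array. Among these was the brightest Hbb-bs probe, at 9.63, 11.31 and 10.57 in wild type and 11.23, 12.04 and 11.08 in Pax6-/-, while the probe of Hbb-bs that ranged most widely read 8.50, 8.81 and 10.13 in wild type and 10.25, 4.61 and 8.51 in Pax6-/-. None passed the test (limma). Taken by the brightest probe, these 3 genes had 1 negative and 2 positive differences, with a median of 0.45.

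Other lists of red cell genes had smaller spans in their mean over the arrays than the members. Of 13 tested genes of haem synthesis and iron uptake, 9 had negative and 4 positive differences, with a median of -0.08. Limma called 0 of them, and 1 had an unadjusted p under 0.05, against 9.09% of all genes. The brightest were Fth1, a ferritin chain, at 11.72 to 11.97 over the arrays and a difference of 0.09 (SE 0.24), and the mitochondrial carrier Slc25a38 at 0.03 (SE 0.28), both also used outside red cells. The mean departure of this list spanned 0.53 over the arrays, against 2.63 for the members. Mitoferrin, Slc25a37, which brings iron into mitochondria for haem, read 5.21, 7.14 and 5.08 in wild type and 6.59, 4.83 and 4.89 in Pax6-/-, highest on the 2 arrays with the most globin. Slc25a37 was named after its values were seen.

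Of 15 genes of the red cell membrane and skeleton on the array, 5 were tested, 3 with negative and 2 with positive differences, a median of -0.14 and 0 called by limma (0 at an unadjusted p under 0.05). Aqp1, a water channel of red cells and endothelium, read 6.69, 7.54 and 5.15 in wild type and 6.89, 4.67 and 4.55 in Pax6-/-. Ermap, an erythroblast membrane protein, read 4.902, 6.24 and 5.72 against 6.56, 5.24 and 5.38. Aqp1 was highest on wild type replicate 2 and Ermap on Pax6-/- replicate 1, while the other 3 tested genes peaked elsewhere, Sptb on Pax6-/- replicate 3 (6.35), Add2 on Pax6-/- replicate 2 (6.26) and Gypc on wild type replicate 3 (5.58). Of 8 tested erythroid transcription factors 4 were negative and 4 positive, with a median of -0.06. Limma called 0 of them, and 2 had an unadjusted p under 0.05, against 9.09% of all genes. The brightest, the cofactor Ldb1 and the GATA factor Gata2, were at -0.28 (SE 0.32) and 0.55 (SE 0.50). Of 10 other red cell enzyme and maturation genes 7 were negative and 3 positive, with a median of -0.18 and 0 called (0 at an unadjusted p under 0.05). The brightest were the peroxiredoxin Prdx2 at -0.04 (SE 0.24) and the transcriptional coregulator Cited2 at -0.33 (SE 0.32).

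Markers of other cells that travel with or line blood vessels were read on the same arrays. Endothelial markers, 8 of 15 tested, had 6 negative and 2 positive differences and a median of -1.27, with 0 called by limma and 4 at an unadjusted p under 0.05, against 9.09% of all genes. Their arrays did not overlap in 5 of 8, all lower in Pax6-/-, against 10.3% of all genes lower without overlap. Among these 5, Esam and Cdh5 lay below the dimmest detected signal on every Pax6-/- array. Both entered the test only through their wild type arrays, so their non-overlap follows in part from the detection filter, as for Klf1. Esam is also among the 4 at an unadjusted p under 0.05. That count and the median of the list thus depend in part on the filter too. The mean departure of the list was 0.30, 0.49 and 0.69 in wild type and -0.26, -1.12 and -0.09 in Pax6-/-. In this mean Pax6-/- replicate 1, the array with the most globin, lay below all wild type arrays. Single genes differed. Cldn5, Sox17, Ramp2, Esam and Cdh5 were lower on it than on any wild type array, and Emcn lay within the wild type values. Tek (6.64) and Egfl7 were highest on it. Of the untested genes Sox18 (8.03) and Tie1 (5.74) were also highest on it, and Pecam1, Kdr, Flt1, Eng and Erg were not. The claudin Cldn5 read 8.23, 8.29 and 8.68 in wild type and 6.61, 4.45 and 7.65 in Pax6-/-, and the secreted factor Egfl7 8.09, 8.40 and 8.41 against 8.48, 5.48 and 7.50. The part of vessel content in the erythroid values was not tested.

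Of 11 macrophage and white cell markers on the array 3 were tested, with 1 negative and 2 positive, a median of 0.41 and 0 called by limma (0 at an unadjusted p under 0.05). Ptprc, which marks white cells, was not detected on any array by any of its 4 probes. Laptm5, a lysosomal protein of blood cells, read 8.40 to 8.67 in wild type and 7.67, 9.33 and 9.77 in Pax6-/-, and Aif1, a macrophage protein, 6.05, 8.20 and 6.81 against 8.72, 5.87 and 8.18. An Aif1 probe that was not tested differed, being detected only on wild type replicate 3 (5.98) and Pax6-/- replicate 3 (4.97). Of 9 platelet markers on the array 4 were tested, and Gp6, Vwf, Itgb3, Ppbp and Treml1 did not pass the detection filter. All 4 differences were positive, with a median of 0.65. Limma called 0, and 1 had an unadjusted p under 0.05, against 9.09% of all genes. Pf4 read 4.69, 4.45 and 5.11 in wild type and 5.53, 4.55 and 7.93 in Pax6-/-. The brightest, the platelet glycoproteins Gp9 and Gp1bb, were at 0.19 (SE 0.31) and 1.01 (SE 0.29). Surface ectoderm and lens placode markers, 11 tested, spanned 0.80 over the arrays in their mean departure. They had 7 negative and 4 positive differences with a median of -0.37. Limma called 0, and 5 had an unadjusted p under 0.05, against 9.09% of all genes. Among these 5, Pitx3 lay below the dimmest detected signal on every Pax6-/- array. It entered the test only through its wild type arrays, so this count depends in part on the detection filter.

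**Figure D5:**
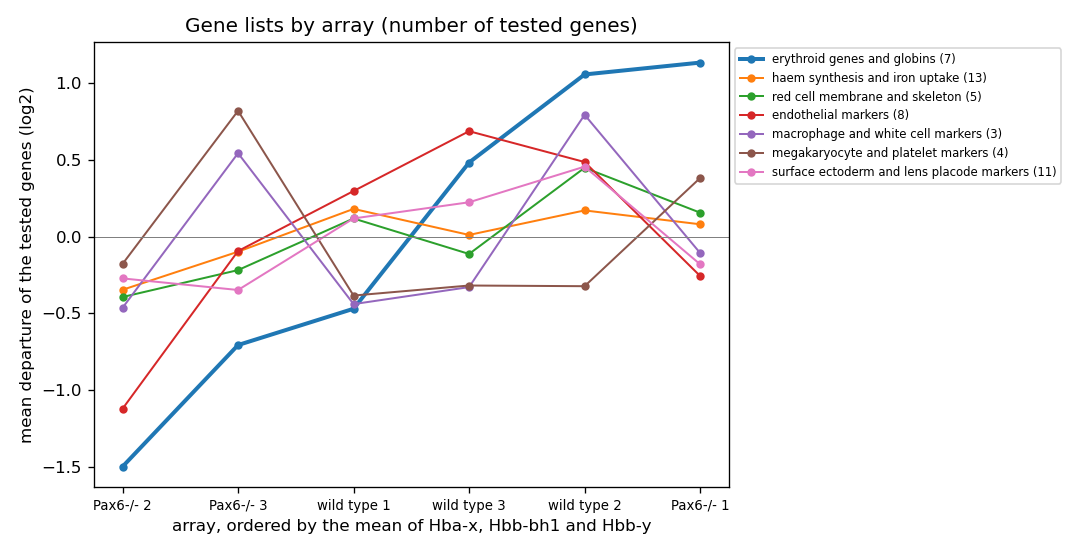
Mean log2 departure from the gene means for 7 lists on each array, arrays ordered by the mean of Hba-x, Hbb-bh1 and Hbb-y, with the number of tested genes in brackets. The erythroid genes and globins span 2.63 and the endothelial markers 1.81, the latter with all Pax6-/- arrays below the wild type arrays.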

How the data were processed

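Signals came from 6 arrays, 3 per genotype, grouped by the sample titles. The authors deposited, per the file headers, an intensity (average signal) and a detection p-value per probe, with other columns for the bead standard error and bead number. Per the submitters' processing notes the tool was GenomeStudio, its version unstated. The authors' processed intensity values, deposited separately, served as an alternative, their making not being described in the labels.

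Intensities were corrected with limma's neqc (limma 3.58.1, R 4.3.3, offset 16), quantile normalized and put on the log2 scale. The offset compresses differences of dim probes. Probes detected (p under 0.05) on at least 3 arrays were kept, 21971 of 45281. They were fitted with lmFit and eBayes on genotype alone, with Benjamini-Hochberg adjustment over all kept probes. The fit was tested on simulated data. The brightest kept probe represented a gene. Gene names came from the platform annotation: 34885 probes had 1 symbol, 18 several and 10378 none listed. Precision is limited by how few arrays there were.

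The members and lists were chosen with earlier results of these data known. Every member probe is given, and of each other list the counts and its 2 brightest genes. Genes outside this rule were named after their values were seen. The 10 genes with profiles nearest to the embryonic globins were named by root mean square distance. Alternatives covered background, normalization, offset, the authors' values, the filter, slide and replicate blocks, array weights, the variance prior, probe averaging and each array left out.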

Additional observations from a re-analysis of the deposited data

How the results depend on the processing

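No member passed an adjusted p of 0.05 with all arrays or in any alternative setting run (with the stricter filter Klf1 was not kept). The difference was negative in all 7 tested members except within slide 1, where 1 member, Klf1, was negative and Hba-x was at 0.13, Hbb-bh1 at 0.20, Hbb-y at 0.13, Hba-a1 at 0.16, Slc4a1 at 0.014 and Alas2 at 1.65, and except for Alas2 with array weights (0.29) and in the fits that left out 1 array (-1.64 to 0.32). Over the fits with 1 array left out, Hba-x lay between -1.85 and -0.21, Hba-a1 between -1.63 and -0.07 and Slc4a1 between -1.90 and -0.03. The cause was not tested. Scaling arrays to a common median in place of quantile normalization moved the median of all genes from -0.07 to -0.20 and that of the members to -0.89, and array weights moved the latter to -0.18. The count of genes called among all genes was 1, and between 0 and 21 over the alternatives, with 21 when all kept probes of a gene were averaged. The replicate numbers do not pair the samples: deviations of same-numbered arrays correlated at 0.06, 0.05 and 0.02. With the replicate number as a block the members' median stayed at -0.72, the smallest adjusted p was 0.585 (Klf1, limma) and 0 genes were called. Gata1 and Epor lay at or near background and were not tested. Klf1 was not detected in Pax6-/-, so the fold between its means is a lower bound, which leaves out the spread between arrays.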

Other observations

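The ammonium transporter gene Rhag, a partner of the Rh proteins in the red cell membrane, was detected by all 3 of its probes on wild type replicate 2 and Pax6-/- replicate 1 and on no other array. Its probes read 4.99 to 5.31 on the former and 7.22, 7.33 and 7.62 on the latter. The haematopoietic factor Lyl1 was detected on the same pair of arrays, at 5.65 and 5.96, as were 2 of the 3 probes of the lysozyme gene Lyz2, which marks macrophages. Rhag, Lyl1 and Lyz2 were picked out because of these values. Among the members and red cell lists, 16 probes were detected on exactly 2 arrays. Of these 5, among them the 3 of Rhag, were detected on this pair (31.2%, against 5.72% of all such probes). The rest were detected on other pairs. Rhd and Nfe2 were brightest on Pax6-/- replicate 2 (6.45 and 5.74), the array with the least globin. Kel and Ank1 were detected on wild type replicate 2 and Pax6-/- replicate 3.

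Genes of erythropoietin receptor signalling had 6 negative and 1 positive difference among 7 tested, with a median of -0.19 and 0 called by limma (0 at an unadjusted p under 0.05). The brightest were the survival gene Bcl2l1, at 8.67, 8.61 and 8.37 in wild type and 7.999, 8.02 and 8.02 in Pax6-/-, and the signal transducer Stat5b at -0.19 (SE 0.32). Epo itself was not detected. Of the mesenchyme markers 8 were tested, 4 in each direction with a median of 0.09. Of the neural markers 5 were tested with a median of 0.56. Limma called 0 in either list, and 2 and 1 had an unadjusted p under 0.05, against 9.09% of all genes. The brightest mesenchyme markers were Pdgfra at -1.89 (SE 0.33) and Foxc2 at -0.73 (SE 0.33), and the brightest neural markers Otx2 at 0.56 (SE 0.49) and Mitf at -0.23 (SE 0.26).

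The 10 genes outside the members whose profile over the 6 arrays lay nearest to the mean of Hba-x, Hbb-bh1 and Hbb-y were Gtf3c4, Ppp1r8, Lmntd2, Mir100hg, Zfyve9, Mrpl55, Cdh2, Gtf2h5, Fam174a and Zfp354c, at root mean square distances of 0.15 to 0.32 on the log2 scale, beside a median of 1.00 over 10960 genes. Of these 10 only Gtf3c4 was detected on all 6 arrays. The others lay below the dimmest detected signal on Pax6-/- replicate 2, so their likeness on that array rests on values at background. For comparison Hba-a1 lay at 0.19, with 2 genes nearer, Slc4a1 at 0.47 with 100, Alas2 at 0.72 with 1139 and Klf1 at 0.82 with 2265. Gtf3c4, a subunit of a general transcription factor, read 6.69, 7.95 and 7.14 in wild type and 7.86, 5.55 and 6.03 in Pax6-/-.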
